A study of Mus musculus with 16 samples.

Results

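The hair placode and the dermal condensate, the 2 cell groups that face each other across the basement membrane of a forming hair follicle, were compared in RNA from embryonic mouse skin at day 14.5. The placode fraction (Pc) and the condensate fraction (DC) had 2 libraries each, out of 16 libraries of 8 fractions sorted by fluorescence from dissociated skin. Of 23235 rows in the deposited table, 12342 reached 1 FPKM in at least 2 of these 4 libraries, and these rows are the genes described here. FPKM are sequenced fragments scaled by transcript length and library size, a level per length that allows genes to be set side by side. The other fractions used for comparison were Epi and Fb, read from general knowledge as the surrounding epidermis and dermal fibroblasts, with Sch (Schwann cells) and Mc (melanocytes) where their genes appear. All groups are embryonic skin at day 14.5, and the labels give no strain, genotype, reporter allele or treatment for any of them. They do not spell out the fraction names and name no sort markers. Genes of surface proteins such as Cdh1, Pdgfra or Cxcr4 could have served for sorting, and a gene that did is no finding. No label says whether replicates 1 and 2 came from separate litters, so the p-values rest on library-to-library spread that may be technical alone.

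A placode is a thickening of the epidermis, and a condensate is a cluster of fibroblast-derived cells that gathers below it and later becomes the dermal papilla. The pair is known for an exchange of secreted signals: Wnt and ectodysplasin signalling set up the placode, FGF20 and Sonic hedgehog from the placode act on the dermis, and BMPs, FGFs and R-spondins from the dermis act on the epithelium. For each pathway the ligands are given here first, then the receptors and inhibitors, then the genes that the pathway commonly induces in the cells that receive the signal.

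The 5 markers given for this pair went with the labels, but as they were given for the pair they are no test of the labels. Fgf20, Shh and Fgf10 entered the genes described here through 1 fraction alone. Fgf20, the placode FGF, stood at 3.59 and 3.93 FPKM in the 2 Pc libraries and was listed at 0 in both DC libraries (limma adjusted p = 2.57e-06). Shh, the hedgehog ligand, stood at 2.64 and 1.33 in Pc and was also listed at 0 in both DC libraries (limma adjusted p = 0.000174). Both placode ligands were low in FPKM, and neither overlapped between the fractions. With a pseudocount of 5 in place of 1, both differences fell under the log2 threshold of 1, as did those of other genes of low FPKM, 35 of the genes named here in all. The condensate markers were far more abundant. Ptch1, the hedgehog receptor, stood at 329 and 294 FPKM in DC and 38.8 and 26.6 in Pc (log2 difference 3.23 ± 0.31, limma adjusted p = 7.20e-06). Bmp4 stood at 540.3 and 374 FPKM in DC and 3.23 and 3.59 in Pc (log2 difference 6.68 ± 0.25, limma adjusted p = 1.53e-08). Fgf10 stood at 69.1 and 116 FPKM in DC and 0.0781 and 0.07799 in Pc (log2 difference 6.39 ± 0.41, limma adjusted p = 3.16e-07). Differences come from a limma fit to log2(FPKM + 1) over all 16 libraries, with 2 libraries per fraction, and each ± is their SE. They are Pc minus DC, given by size unless a sign is shown. A gene was called when its adjusted p was under 0.05 and its log2 difference was at least 1 in size. In the mm10 coordinates of the table, Fgf20 lies at chr8:40279200-40287000, Shh at chr5:28456800-28719200, Ptch1 at chr13:63511500-63565500, Bmp4 at chr14:46379500-46390600 and Fgf10 at chr13:118715000-118793000. The listed loci of Shh, Bmp4, Gli1 and Fgf7 are shared with rows of neighbouring genes (9530036O11Rik, Gm15217, Arhgap9, and Fam227b with Galk2), and how reads there were divided is not given in the sources used here.

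The 2 libraries of each fraction were closer to each other than to the facing fraction: across genes, Pearson's r on the log2 scale was 0.969 between the Pc libraries, 0.938 between the DC libraries and 0.671 to 0.710 between fractions. Of 18 keratinocyte genes, 17 were higher in Pc and Itga6 was not called. All 15 dermal condensate genes were higher in DC; several of these became known as markers partly through these samples, so their count is not independent evidence. Summed fibroblast markers (11 genes) stood at 334 and 353 FPKM in Pc, 3.51% of the Fb level, and summed keratinocyte markers at 105 and 95.6 in DC, 1.88% of the Epi level. Schwann cell markers (8 genes) summed to 46.2 and 97.1 FPKM in DC against 17.7 and 12.9 in Pc, and 6 of the 7 among the members were higher in DC. None of 8 melanocyte, 4 erythroid or 2 leukocyte genes among the members was called. In bulk fractions, fewer cells of a type and less RNA per cell cannot be told apart. An exact 0 can be a failed estimate in this table: Malat1, an abundant nuclear RNA, stood at 1389 and 1858 FPKM in Pc and was listed at 0 in both DC libraries. No log2 difference is therefore given for genes listed at 0 throughout a fraction.

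Of the 12342 genes, 3818 were called, 30.9%: 1851 (15%) were higher in Pc and 1967 (15.9%) higher in DC. The median log2 difference was 0.0022. Among the 12342 genes, 659 reached 1 FPKM in both Pc libraries and neither DC library, and 879 in both DC libraries and neither Pc library. These passed the filter through 1 fraction alone, and their direction follows from it. Malat1 aside, the genes with the largest differences toward Pc by the naming rule were the basal keratins Krt14, Krt5 and Krt15, the epidermal transcription factor Trp63, the gap junction genes Gjb2 and Gjb6, Fgfbp1, which encodes an FGF carrier, Apoc1 and the cadherin Cdh3. Krt14 led these at 1166 and 735 FPKM in Pc and 7.57 and 4.797 in DC (log2 difference 7.04 ± 0.78, limma adjusted p = 1.97e-05), and Cdh3 closed them at 136 and 106 FPKM in Pc and 0.726 and 1.13 in DC (log2 difference 5.98 ± 0.36, limma adjusted p = 1.91e-07). Fgfbp1 is the one secreted FGF partner among them, at 193 and 171 FPKM in Pc and 1.55 and 0.993 in DC (log2 difference 6.34 ± 0.47, limma adjusted p = 8.64e-07). Toward DC the largest differences were those of Sox18, Enpp2, Col23a1, Prdm1, Ngfr, Bmp3, Gal, Foxd1, Ebf1 and Edn3. They comprise 4 transcription factor genes (Sox18, Prdm1, Foxd1 and Ebf1), the secreted enzyme gene Enpp2, a collagen, a neurotrophin receptor and 3 secreted ligands. Sox18 was uneven between the DC libraries, at 1313 and 346 FPKM in DC and 2.47 and 0.581 in Pc (log2 difference 8.17 ± 0.65, limma adjusted p = 1.49e-06). Enpp2, which makes lysophosphatidic acid, was even, at 408 and 419.7 FPKM in DC and 0.514 and 0.741 in Pc (log2 difference 7.997 ± 0.33, limma adjusted p = 2.00e-08).

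Signalling genes were called more often than the 30.9% of all members in each of 4 roles. Of 96 ligand and agonist genes among the members (of 161 listed), 37 were higher in Pc and 35 in DC, 75% in all, with a median log2 difference of 0.040. Of 105 receptors (of 135), 27 were higher in Pc and 44 in DC, 67.6% in all, with a median of -0.61. Of 24 inhibitors (of 34), 7 were higher in Pc and 13 in DC, 83.3% in all. Of 32 target genes (of 36), 2 were higher in Pc and 19 in DC, 65.6% in all, with a median of -2.12. Ligands were thus split between the fractions, whereas targets were mostly higher in DC. The lists hold genes known for this tissue, so the shares describe the lists and are not a test.

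**Figure D1:**
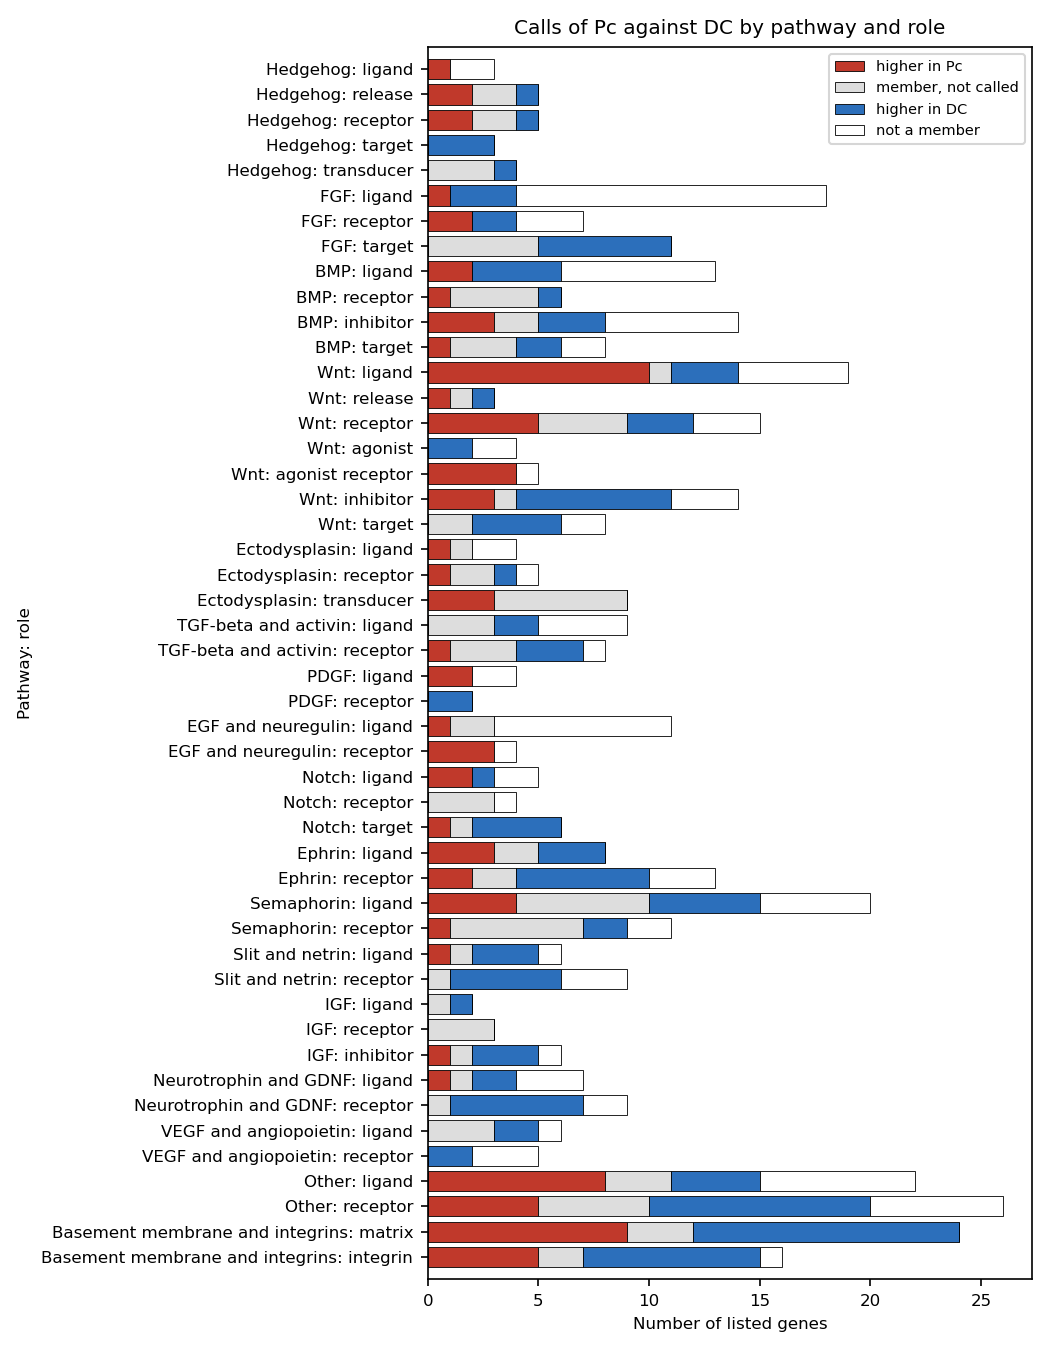
Calls of Pc against DC for each pathway and role. Bars give the number of listed genes (horizontal axis) called higher in Pc (red), called higher in DC (blue), among the members but not called (grey) and not among the members (white). The bars of hedgehog, FGF and Wnt target genes hold no red.

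In the hedgehog pathway the ligand was higher in Pc and the induced genes were higher in DC. Of 3 hedgehog ligand genes, Shh alone was among the members. Release genes were mixed. Disp1, which frees the lipid-bound ligand, stood at 12.5 and 11.6 FPKM in Pc and 6.78 and 3.45 in DC (log2 difference 1.15 ± 0.36, limma adjusted p = 0.0266). Scube3, whose protein helps release it, stood at 8.44 and 8.55 FPKM in Pc and 3.29 and 1.09 in DC (log2 difference 1.66 ± 0.49, limma adjusted p = 0.0194). Scube2 was higher in DC at 4.91 and 3.01 FPKM in DC and 0.626 and 0.792 in Pc (log2 difference 1.51 ± 0.40, limma adjusted p = 0.0101). Beside Ptch1, the target genes Gli1 and Hhip were higher in DC. Gli1, the pathway's transcription factor and readout, stood at 154 and 90.9 FPKM in DC and 21.5 and 10.9 in Pc (log2 difference 2.87 ± 0.53, limma adjusted p = 0.00103). Hhip, a decoy receptor, stood at 29.1 and 44.5 FPKM in DC and 0.125 and 0.161 in Pc (log2 difference 5.02 ± 0.31, limma adjusted p = 2.18e-07). The signal transducer Smo was not called (46.3 and 31.1 FPKM in DC and 25.4 and 17.6 in Pc), and Gli2 was higher in DC (log2 difference 1.74 ± 0.43, limma adjusted p = 0.007). The co-receptors Cdon and Gas1, which bind the ligand at the receiving cell surface, went the other way and were higher in Pc. Cdon stood at 28.9 and 39.7 FPKM in Pc and 8.45 and 11.8 in DC (log2 difference 1.66 ± 0.23, limma adjusted p = 0.000106). Gas1 stood at 53.6 and 38.1 FPKM in Pc and 10.1 and 6.497 in DC (log2 difference 2.34 ± 0.41, limma adjusted p = 0.000715). The third co-receptor, Boc, was not called, at 11.996 and 8.65 FPKM in Pc and 11.6 and 7.0003 in DC (limma adjusted p = 0.793). Some calls here rested on single libraries and were lost for Disp1 without Pc replicate 1, Pc replicate 2 or DC replicate 2 (limma adjusted p = 0.11, 0.0822 and 0.205), Scube2 without Pc replicate 1 or DC replicate 1 (limma adjusted p = 0.0575 and 0.0778), Scube3 without Pc replicate 1, Pc replicate 2 or DC replicate 2 (limma adjusted p = 0.0734, 0.0769 and 0.161) and Gli2 without Pc replicate 2 or DC replicate 1 (limma adjusted p = 0.0616 and 0.0656).

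Of 18 FGF ligands only 4 were among the members. Fgf20 alone was higher in Pc. Fgf10 and Fgf7, both ligands of the epithelial splice form of FGFR2, were higher in DC, Fgf7 at only 1.02 and 2.54 FPKM in DC and 0.01097 and 0.0553 in Pc (log2 difference 1.37 ± 0.32, limma adjusted p = 0.0054). Fgf3 was listed at 0 in both Pc libraries and stood at 2.44 and 2.19 in DC (limma adjusted p = 3.88e-06). The receptors were divided. Fgfr2 reached the highest level of the 4 receptors and was higher in Pc, at 208 and 256 FPKM in Pc and 97.6 and 89.9 in DC (log2 difference 1.29 ± 0.34, limma adjusted p = 0.00932). Fgfr1 was higher in DC, at 165 and 103 FPKM in DC and 8.25 and 4.94 in Pc (log2 difference 4.14 ± 0.36, limma adjusted p = 2.88e-06). Fgfr3 was higher in Pc at a low level, 8.18 and 4.96 FPKM in Pc and 1.33 and 1.25 in DC (log2 difference 1.69 ± 0.26, limma adjusted p = 0.000251), and the short receptor Fgfrl1 in DC (log2 difference 3.13 ± 0.39, limma adjusted p = 4.94e-05). Gene-level FPKM do not separate the splice forms of FGFR2, and Fgfr2 was still 97.6 and 89.9 FPKM in DC. Among 11 FGF target genes, mostly feedback inhibitors, 6 were higher in DC and none in Pc. Spry4 stood at 34.01 and 39.2 FPKM in DC and 1.38 and 1.24 in Pc (log2 difference 4.02 ± 0.23, limma adjusted p = 1.58e-07). Spred1 stood at 93.9 and 143 FPKM in DC and 8.49 and 12.3 in Pc (log2 difference 3.38 ± 0.35, limma adjusted p = 1.21e-05). Il17rd stood at 21.6 and 24.01 FPKM in DC and 0.753 and 0.662 in Pc (log2 difference 3.799 ± 0.18, limma adjusted p = 4.20e-08). Spry1, Etv1 and Spred3 were the other 3. The remaining targets Dusp6, Etv4, Etv5, Spry2 and Spred2 were not called, and their log2 differences lay between -0.87 for Etv5 and 0.82 for Spred2. The calls of both Fgf7 and Fgfr2 were lost without 1 library: Fgf7 without DC replicate 2 (limma adjusted p = 0.0594) and Fgfr2 without Pc replicate 2 (limma adjusted p = 0.0687).

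The ectodysplasin genes were led by the receptor in Pc. Edar, the receptor whose loss removes these follicles, stood at 13.9 and 13.6 FPKM in Pc and was listed at 0 in both DC libraries (limma adjusted p = 5.22e-08). Its adaptor Edaradd stood at 16.2 and 21.3 FPKM in Pc and 3.61 and 3.63 in DC (log2 difference 2.08 ± 0.22, limma adjusted p = 1.46e-05), and the NF-kB inhibitor and target Nfkbia at 8.36 and 6.08 FPKM in Pc and 0.951 and 1.503 in DC (log2 difference 1.88 ± 0.26, limma adjusted p = 0.000125). The ligand Eda itself missed the log2 threshold, at 4.85 and 5.27 FPKM in Pc and 2.04 and 2.15 in DC (log2 difference 0.97 ± 0.22, limma adjusted p = 0.0047), and passed it without Pc replicate 1. Relb was the third of 9 transducers higher in Pc, and no transducer was higher in DC. The call was lost for Relb without Pc replicate 1, DC replicate 1 or DC replicate 2 (limma adjusted p = 0.339, 0.0808 and 0.182). The TNF ligand Ltb stood at 5.19 and 1.698 in Pc and was listed at 0 in DC (limma adjusted p = 0.00176). Tnfrsf11a, the receptor RANK, was the one receptor of the list higher in DC, at 6.35 and 7.44 FPKM in DC and 0.139 and 0.198 in Pc (log2 difference 2.75 ± 0.26, limma adjusted p = 5.74e-06), while Tnfrsf19 was not called, at 99.1 and 108 FPKM in Pc and 107 and 120.1 in DC (limma adjusted p = 0.652).

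The promoter of Edar is shown because Edar is known as a gene downstream of Wnt signalling. The sequence is the 250 bases before the RefSeq start (GRCm38.p6, chr10:58675697-58675946, minus strand), written 5′ to 3′, with capitals marking the letters ATCAAAG, the TCF/LEF motif, found here on the reverse strand:
Edar: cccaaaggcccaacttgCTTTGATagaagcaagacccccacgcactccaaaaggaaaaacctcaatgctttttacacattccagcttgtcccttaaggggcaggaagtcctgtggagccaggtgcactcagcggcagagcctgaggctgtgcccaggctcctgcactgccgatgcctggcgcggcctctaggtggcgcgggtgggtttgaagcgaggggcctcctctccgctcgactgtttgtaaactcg
Both strands were searched. The motif was held by 3.21% of 32851 mouse promoters of this length and by 1 or more promoters of 3.72% of 27025 genes. Of 12 placode genes listed, 6 had a promoter, and 2 of these, Edar and Sp5, held the motif. The match in Edar is a description of letters and no evidence of binding.

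Wnt ligands were the largest group of signals on the placode side. Of 14 among the members (19 listed), 10 were higher in Pc and 3 in DC. Wnt10b stood at 41.8 and 25.1 FPKM in Pc and was listed at 0 in both DC libraries (limma adjusted p = 3.54e-07). Wnt3 stood at 42.1 and 34.9 FPKM in Pc and 0.243 and 0.6398 in DC (log2 difference 4.79 ± 0.40, limma adjusted p = 2.24e-06). Both are ligands known for acting through beta-catenin. Wnt4 stood at 46.6 and 42.5 FPKM in Pc and 4.86 and 4.55 in DC (log2 difference 2.996 ± 0.26, limma adjusted p = 3.28e-06). Wnt7b stood at 25.6 and 16.3 FPKM in Pc and 0.086998 and 0.0927 in DC (log2 difference 4.298 ± 0.30, limma adjusted p = 5.27e-07). The others higher in Pc were Wnt3a, Wnt6, Wnt7a, Wnt9b, Wnt10a and Wnt16. Wls, which carries Wnt proteins to the cell surface, was higher in Pc as well, at 64.99 and 99.6 FPKM in Pc and 13.3 and 23.5 in DC (log2 difference 2.12 ± 0.39, limma adjusted p = 0.00109). On the condensate side Wnt5a, a ligand known for acting without beta-catenin, stood at 89.004 and 111 FPKM in DC and 1.56 and 1.68 in Pc (log2 difference 5.26 ± 0.37, limma adjusted p = 5.27e-07), and its receptor Ror2 at 32.9 and 15.2 FPKM in DC and 0.456 and 0.199 in Pc (log2 difference 4.15 ± 0.46, limma adjusted p = 1.90e-05). Wnt9a and Wnt11 were the other 2 higher in DC, at 7.68 and 3.24 and 2.75 and 1.06 FPKM.

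Wnt receptors and the R-spondin system divided by fraction too. Fzd6 stood at 55.4 and 78.2 FPKM in Pc and 0.518 and 1.39 in DC (log2 difference 5.13 ± 0.35, limma adjusted p = 4.35e-07). Fzd10 stood at 26.7 and 26.3 FPKM in Pc and 1.99 and 0.951 in DC (log2 difference 3.51 ± 0.37, limma adjusted p = 1.44e-05). Fzd2 was higher in DC at 89.7 and 44.6 FPKM in DC and 11.9 and 11.4 in Pc (log2 difference 2.35 ± 0.32, limma adjusted p = 0.000103). The co-receptors Lrp5 and Lrp6 were not called, Lrp6 standing at 22.6 and 30.3 FPKM in Pc and 18.8 and 30.3 in DC. R-spondins amplify Wnt signals by binding LGR receptors and removing the ligases ZNRF3 and RNF43. Rspo3 stood at 133 and 168 FPKM in DC and 0.527 and 1.28 in Pc (log2 difference 6.34 ± 0.39, limma adjusted p = 2.21e-07). Rspo1 was higher in DC at 4.62 and 2.71 FPKM in DC and 0.808 and 0.797 in Pc (log2 difference 1.34 ± 0.38, limma adjusted p = 0.0156). The call was lost for Rspo1 without Pc replicate 1, Pc replicate 2 or DC replicate 1 (limma adjusted p = 0.0649, 0.0668 and 0.113), whereas that of Rspo3 was kept without each of the 4 libraries. All 4 R-spondin receptor genes among the members were higher in Pc: Lgr4 at 21.9 and 30.7 FPKM in Pc and 5.86 and 5.56 in DC (log2 difference 2.005 ± 0.27, limma adjusted p = 9.05e-05), Lgr6, Znrf3 and Rnf43. Rnf43 showed the largest difference of these, 13.9 and 8.96 FPKM in Pc and 0.182 and 0.191 in DC (log2 difference 3.36 ± 0.29, limma adjusted p = 2.64e-06).

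Wnt inhibitors, secreted or at the membrane, were mostly higher in DC, 7 of 11 against 3 in Pc. Wif1, which binds Wnt proteins, stood at 89.6 and 83.8 FPKM in DC and 4.79 and 2.51 in Pc (log2 difference 4.28 ± 0.33, limma adjusted p = 1.15e-06). Frzb stood at 45.03 and 44.7 FPKM in DC and 0.0762 and 0.176 in Pc (log2 difference 5.35 ± 0.27, limma adjusted p = 5.51e-08). Sfrp2 stood at 92.3 and 52.6 FPKM in DC and 4.03 and 3.27 in Pc (log2 difference 3.93 ± 0.31, limma adjusted p = 1.52e-06). Dkk1, Dkk2, Kremen1 and Apcdd1 were the other 4. Pc held a different member of the DKK family: Dkk4, a known target of Wnt and ectodysplasin in placodes, stood at 20.1 and 18.1 FPKM in Pc and 0 and 0.0888 in DC (log2 difference 4.26 ± 0.18, limma adjusted p = 2.23e-08). The DKK receptor Kremen2 stood at 112 and 64.3 FPKM in Pc and 0.476 and 0.719 in DC (log2 difference 5.75 ± 0.57, limma adjusted p = 8.16e-06), and Sfrp1 was the third of the inhibitors higher in Pc. Among 6 target genes, 4 were higher in DC and none in Pc. Axin2, the common readout of beta-catenin activity, stood at 54.8 and 40.3 FPKM in DC and 19.6 and 13.6 in Pc (log2 difference 1.47 ± 0.36, limma adjusted p = 0.0066). Nkd1 stood at 70.9 and 46.8 FPKM in DC and 0.799 and 0.472 in Pc (log2 difference 5.17 ± 0.30, limma adjusted p = 1.44e-07), with Nkd2 and Notum also higher in DC. Lef1, a transcription factor of the pathway, was abundant in both and not called, at 157 and 121 FPKM in DC and 89.3 and 84.8 in Pc (log2 difference 0.66 ± 0.19, limma adjusted p = 0.0162). Calls were lost for Axin2 without Pc replicate 2 or DC replicate 1 (limma adjusted p = 0.0625 and 0.0529) and Sfrp1 without Pc replicate 2 (limma adjusted p = 0.0582).

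BMP ligands were mainly on the condensate side, and the antagonists on both. Beside Bmp4, Bmp3 stood at 224 and 173 FPKM in DC and 0.242 and 0.375 in Pc (log2 difference 7.24 ± 0.53, limma adjusted p = 7.51e-07). Bmp7 stood at 285 and 134 FPKM in DC and 67.4 and 38.7 in Pc (log2 difference 1.91 ± 0.48, limma adjusted p = 0.00814). Bmp1, also on the list, encodes a procollagen protease. In Pc the called ligands were Bmp2, at 10.4 and 13.8 FPKM in Pc and 2.63 and 2.97 in DC (log2 difference 1.78 ± 0.33, limma adjusted p = 0.00109), and Bmp8b, at 1.65 and 1.05 FPKM in Pc and 0.08097 and 0.215 in DC. Of 6 receptor genes Bmpr1b alone was higher in Pc, at 20.3 and 31.5 FPKM in Pc and 0.305 and 0.381 in DC (log2 difference 4.29 ± 0.35, limma adjusted p = 1.89e-06). Acvr1 alone was higher in DC (log2 difference 1.42 ± 0.19, limma adjusted p = 0.000108), and Bmpr1a and Bmpr2 were not called, Bmpr1a standing at 25.6 and 42.02 FPKM in Pc and 25.8 and 33.8 in DC. The antagonist Sostdc1, which surrounds placodes, stood at 152 and 203 FPKM in Pc and 11.7 and 9.92 in DC (log2 difference 3.91 ± 0.36, limma adjusted p = 4.98e-06), and Fst and Smoc2 were also higher in Pc. Smoc1 stood on the other side at 166 and 110.3 FPKM in DC and 0.371 and 0.251 in Pc (log2 difference 6.703 ± 0.26, limma adjusted p = 1.53e-08), with Chrd and Fstl1. Of the target genes Smad7 and Id4 were higher in DC, Msx2 was higher in Pc at 2.04 and 1.85 FPKM, and Id1, Id2 and Id3 were not called. Id1 had uneven libraries, at 23.8 and 6.45 FPKM in DC and 9.55 and 8.098 in Pc. Calls were lost for Bmp7 without Pc replicate 2 or DC replicate 1 (limma adjusted p = 0.0785 and 0.0826), Bmp8b without Pc replicate 1 or DC replicate 1 (log2 difference 0.84 and 0.94), Chrd without Pc replicate 2 or DC replicate 1 (limma adjusted p = 0.0584 and 0.101), Fst without Pc replicate 2 (limma adjusted p = 0.0968), Smoc2 without Pc replicate 1, Pc replicate 2 or DC replicate 2 (limma adjusted p = 0.0677, 0.084 and 0.0966) and Msx2 without DC replicate 2 (log2 difference 0.99).

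The PDGF genes were divided into ligands in the placode and receptors in the condensate. Both ligands were higher in Pc: Pdgfa at 297 and 240.4 FPKM in Pc and 70.1 and 35.6 in DC (log2 difference 2.395 ± 0.41, limma adjusted p = 0.000607). Pdgfc stood at 42.1 and 44.6 FPKM in Pc and 1.102 and 1.01 in DC (log2 difference 4.43 ± 0.30, limma adjusted p = 4.03e-07). Both receptors were higher in DC. Pdgfra stood at 81.7 and 101 FPKM in DC and 1.31 and 1.36 in Pc (log2 difference 5.301 ± 0.23, limma adjusted p = 2.25e-08). Pdgfrb stood at 106 and 75.8 FPKM in DC and 1.28 and 0.589 in Pc (log2 difference 5.57 ± 0.28, limma adjusted p = 5.19e-08). In the activin and TGF-beta family the direction was the opposite for 1 pair. Inhba, which encodes activin A, stood at 205 and 134 FPKM in DC and 0.823 and 0.724 in Pc (log2 difference 6.56 ± 0.32, limma adjusted p = 4.38e-08), and the activin receptor Acvr1b at 22.9 and 22.1 FPKM in Pc and 3.64 and 4.85 in DC (log2 difference 2.17 ± 0.20, limma adjusted p = 5.65e-06). Tgfbr2 and Tgfbr3 were higher in DC, while Tgfb1, Tgfb2 and Tgfb3 were not called. Tgfb1 and Tgfb2 were called without DC replicate 2, and Tgfb1 with the replicate block (limma adjusted p = 0.00247).

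Notch ligands were split between the fractions. Jag1 stood at 25.3 and 22.03 FPKM in Pc and 0.753 and 1.67 in DC (log2 difference 3.51 ± 0.24, limma adjusted p = 5.22e-07). Jag2 stood at 22.4 and 10.3 FPKM in Pc and 0.33001 and 0.331 in DC (log2 difference 3.61 ± 0.58, limma adjusted p = 0.00038). Dll1 was higher in DC at 75.3 and 57.99 FPKM in DC and 8.68 and 6.85 in Pc (log2 difference 2.94 ± 0.38, limma adjusted p = 7.51e-05). The receptors Notch1, Notch2 and Notch3 were not called. Notch3 was called higher in DC with the replicate block (limma adjusted p = 0.00024) and without Pc replicate 1 or DC replicate 2 (limma adjusted p = 0.0302 and 0.0403). Of 6 target genes 4 were higher in DC: Heyl at 106 and 57.6 FPKM in DC and 0.497 and 0.205 in Pc (log2 difference 5.88 ± 0.30, limma adjusted p = 6.46e-08). Hey1 stood at 42.9 and 29.2 FPKM in DC and 0.5695 and 0.615 in Pc (log2 difference 4.52 ± 0.29, limma adjusted p = 2.82e-07). Hey2 stood at 4.18 and 4.68 FPKM in DC and 0.0783 and 0.08799 in Pc (log2 difference 2.32 ± 0.29, limma adjusted p = 4.74e-05). The fourth, Hes5, was listed at 0 in both Pc libraries and stood at 12.1 and 4.06 in DC (limma adjusted p = 1.36e-05). Nrarp, a feedback inhibitor, was higher in Pc, at 27.1 and 14.8 FPKM in Pc and 0.691 and 2.11 in DC (log2 difference 3.201 ± 0.55, limma adjusted p = 0.000636), and Hes1 was not called.

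Of the Notch targets, 3 had a RefSeq promoter, and 2 of these, Hes5 and Hey2, held the letters GTGGGAA of the RBPJ motif in the 250 bases before the start, as did 5.42% of all promoters. The third, Nrarp, which was higher in Pc, held no match. The sequences of Hes5 and Hey2 are shown because they hold the motif (GRCm38.p6, Hes5 chr4:154960673-154960922, plus strand, Hey2 chr10:30842784-30843033, minus strand), with the motif on either strand in capitals:
Hes5: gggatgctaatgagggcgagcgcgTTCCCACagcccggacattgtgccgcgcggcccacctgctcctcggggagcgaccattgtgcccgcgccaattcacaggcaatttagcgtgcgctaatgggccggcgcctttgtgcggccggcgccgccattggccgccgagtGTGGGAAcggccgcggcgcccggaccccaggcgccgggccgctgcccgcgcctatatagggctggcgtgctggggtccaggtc
Hey2: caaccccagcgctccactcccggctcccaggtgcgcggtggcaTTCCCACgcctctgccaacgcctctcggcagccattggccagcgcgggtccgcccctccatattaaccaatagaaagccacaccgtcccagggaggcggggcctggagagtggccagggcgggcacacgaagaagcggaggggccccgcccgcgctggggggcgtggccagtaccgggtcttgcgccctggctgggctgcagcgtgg
Hes5 held 2 matches and Hey2 held 1. A match here is a description of the letters alone.

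Receptor genes of the neurotrophin and endothelin families were mostly higher in DC. Of 4 neurotrophin and GDNF ligand genes among the members, Ntf5 was higher in Pc, Ntf3 and Gdnf were higher in DC, and Bdnf was not called. Ngfr, the common neurotrophin receptor and a known marker of the condensate, stood at 444 and 208 FPKM in DC and 1.34 and 0.639 in Pc (log2 difference 7.28 ± 0.39, limma adjusted p = 7.69e-08). Of 7 receptors of this group 6 were higher in DC, among them Gfra1 at 24.9 and 20.7 FPKM in DC and 0.321 and 0.294 in Pc (log2 difference 4.18 ± 0.20, limma adjusted p = 3.50e-08). Gfra3 stood at 8.28 and 6.92 FPKM in DC and 0.307 and 0.0765 in Pc (log2 difference 2.85 ± 0.24, limma adjusted p = 2.25e-06). Schwann cells express several of these genes, and Schwann markers were higher in DC than in Pc. Ngfr stood at 218 and 149 FPKM in Sch, whereas the DC mean of Gfra3 was 3.74% of its Sch mean and that of Sox10 was 3.02%. The part of Schwann cells in Gfra3 and Ednrb was not tested. Edn1 was low and higher in Pc, at 2.23 and 2.94 FPKM in Pc and 0 and 0.0917 in DC (log2 difference 1.77 ± 0.25, limma adjusted p = 0.000136), and Edn2 as well. Edn3 stood at 266 and 248 FPKM in DC and 1.39 and 0.866 in Pc (log2 difference 6.93 ± 0.29, limma adjusted p = 2.00e-08), and both receptors were higher in DC: Ednra at 93.6 and 97.6 FPKM in DC and 1.399 and 0.971 in Pc (log2 difference 5.47 ± 0.24, limma adjusted p = 2.25e-08). Ednrb stood at 51.2 and 75.8 FPKM in DC and 2.35 and 2.45 in Pc (log2 difference 4.22 ± 0.37, limma adjusted p = 3.39e-06). The DC mean of Ednrb was 23.6% of its Sch mean.

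Guidance molecules added pairs within the condensate. Slit3 stood at 98.4 and 69.9 FPKM in DC and 2.81 and 0.825 in Pc (log2 difference 4.99 ± 0.40, limma adjusted p = 1.49e-06), Slit2 was also higher in DC, and the SLIT receptors Robo1 and Robo2 were higher there as well, Robo2 at 47.5 and 71.9 FPKM in DC and 2.31 and 2.699 in Pc (log2 difference 4.09 ± 0.35, limma adjusted p = 2.72e-06). The netrin receptor Dcc stood at 14.95 and 25.2 FPKM in DC and 0.0402 and 0.0202 in Pc (log2 difference 4.31 ± 0.33, limma adjusted p = 1.02e-06). Nrp2, a receptor for class 3 semaphorins and VEGF, stood at 416 and 386 FPKM in DC and 4.84 and 3.29 in Pc (log2 difference 6.33 ± 0.31, limma adjusted p = 4.36e-08). Of 10 ephrin receptors among the members 6 were higher in DC, including Epha3 and Epha7, and Epha1 and Epha2 were higher in Pc. Efnb2, an ephrin ligand, was higher in Pc at 31.4 and 35.9 FPKM in Pc and 13.4 and 13.7 in DC (log2 difference 1.25 ± 0.16, limma adjusted p = 8.11e-05), and Efnb1 and Efnb3 in DC. Calls were lost for Efnb1 without Pc replicate 1 or DC replicate 1 (limma adjusted p = 0.0545 and 0.106) and Epha4 without Pc replicate 2 or DC replicate 2 (limma adjusted p = 0.0524 and 0.0642). Of 15 semaphorin ligands 4 were higher in Pc, 5 in DC and 6 were not called.

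The growth factor and chemokine genes outside these families included several of the largest differences. Igf1 stood at 332 and 311 FPKM in DC and 2.94 and 3.94 in Pc (log2 difference 6.19 ± 0.31, limma adjusted p = 5.10e-08), while its receptor Igf1r was not called, at 19.9 and 23.1 FPKM in DC and 17.4 and 20.7 in Pc. The IGF-binding protein genes Igfbp3 and Igfbp4 were higher in DC, Igfbp3 at 511 and 414 FPKM in DC and 4.18 and 2.502 in Pc (log2 difference 6.76 ± 0.26, limma adjusted p = 1.53e-08). Igfbp5 was higher in Pc at 151 and 164 FPKM in Pc and 59.03 and 90.2 in DC (log2 difference 1.097 ± 0.23, limma adjusted p = 0.00286). Gal, the neuropeptide galanin, stood at 269 and 137 FPKM in DC and 0.231 and 0.421 in Pc (log2 difference 7.19 ± 0.39, limma adjusted p = 8.88e-08), and its receptor Galr3 at 16.6 and 11.1 FPKM in Pc and 2.36 and 1.45 in DC (log2 difference 2.35 ± 0.32, limma adjusted p = 9.60e-05). Pthlh was higher in Pc at 8.19 and 5.395 FPKM in Pc and 0.378 and 0 in DC (log2 difference 2.71 ± 0.22, limma adjusted p = 1.72e-06), and its receptor Pth1r in DC at 115 and 55.8 FPKM in DC and 1.43 and 0.406 in Pc (log2 difference 5.46 ± 0.61, limma adjusted p = 2.17e-05). The chemokine Cxcl14 stood at 182 and 181 FPKM in Pc and 14.7 and 6.601 in DC (log2 difference 4.07 ± 0.43, limma adjusted p = 1.32e-05). Cxcl12 was low in both, at 4.39 and 9.37 FPKM in DC and 1.08 and 1.17 in Pc (log2 difference 1.81 ± 0.33, limma adjusted p = 0.001). Its receptor Cxcr4 was higher in DC, at 72.7 and 58.003 FPKM in DC and 1.83 and 2.46 in Pc (log2 difference 4.396 ± 0.32, limma adjusted p = 7.39e-07), and its scavenging receptor, Cxcr7 in the table, higher in Pc (log2 difference 3.65 ± 0.24, limma adjusted p = 3.57e-07). Ptn, a heparin-binding growth factor, stood at 56.9 and 72.6 FPKM in Pc and 2.81 and 4.22 in DC (log2 difference 3.87 ± 0.28, limma adjusted p = 6.70e-07). Egfr, Erbb2 and Erbb3 were all higher in Pc, Egfr at 66.8 and 81.7 FPKM in Pc and 7.11 and 8.75 in DC (log2 difference 3.07 ± 0.36, limma adjusted p = 3.19e-05), and Vegfa with its receptors Flt1 and Kdr was higher in DC, Vegfa at 61.4 and 72.99 FPKM in DC and 11.8 and 10.3 in Pc (log2 difference 2.496 ± 0.18, limma adjusted p = 7.66e-07). The endothelial genes Pecam1 and Cdh5 were not called, at 0.347 and 2.58 and 0.7897 and 5.59 FPKM in DC, and Cdh5 was called higher in Pc without DC replicate 2 (limma adjusted p = 0.0365). Calls were lost for Erbb2 without Pc replicate 1 or DC replicate 2 (limma adjusted p = 0.204 and 0.265) and Igfbp5 without DC replicate 1 (log2 difference 0.80).

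The basement membrane between the fractions drew its genes from both. Of 24 matrix genes 9 were higher in Pc and 12 in DC, against 15% and 15.9% of all members. Pc held the epithelial laminin chains Lama3, Lama5 and Lamb3 with Col17a1, Fras1 and Frem2, Lama5 at 29.4 and 15.04 FPKM in Pc and 0.395 and 0.219 in DC (log2 difference 4.08 ± 0.44, limma adjusted p = 1.58e-05). DC held Nid1 at 307 and 251 FPKM in DC and 4.36 and 4.84 in Pc (log2 difference 5.64 ± 0.18, limma adjusted p = 4.88e-09), Col4a1 and Col4a2, Lama2 at 124 and 172 FPKM in DC and 0.565 and 0.551 in Pc (log2 difference 6.56 ± 0.24, limma adjusted p = 1.17e-08), and Frem1, whose protein acts with FRAS1 and FREM2. Npnt, which encodes the matrix ligand nephronectin, stood at 20.7 and 22.6 FPKM in Pc and 0.428 and 0.764 in DC (log2 difference 3.83 ± 0.20, limma adjusted p = 6.46e-08), and its integrin receptor gene Itga8 at 18.5 and 26.9 FPKM in DC and 0.349 and 0.2198 in Pc (log2 difference 4.18 ± 0.31, limma adjusted p = 8.99e-07). Of 15 integrins 5 were higher in Pc, led by Itgb4 and Itga3, and 8 in DC, against the same shares of all members.

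These calls were combined for 168 ligand and receptor pairs, named from general knowledge but chosen with earlier results of these data known. The pairs are not a full tally of the genes above. No Wnt ligand was paired with a frizzled or ROR receptor, and Edn2 and Fgf3 were in no pair. Both genes were among the members in 106 pairs, and both were called in 46. In 12 pairs the ligand was higher in Pc and the receptor in DC, and in 11 the ligand was higher in DC and the receptor in Pc. Pairs of facing fractions thus made 23 of the 46, while in the other 23 both genes were higher in the same fraction, 16 in DC and 7 in Pc. The pairs share genes, so they are not independent, and the counts have no test. Called ligand genes were split 37 to 35 between Pc and DC. With such a split, facing pairs would be about as many as same-fraction pairs even if ligand and receptor directions were unrelated. The counts therefore do not show that ligands and receptors face each other more often than unrelated genes. The placode-to-condensate pairs came from 8 ligands and 11 receptors: Shh with Ptch1 and Hhip, Fgf20 with Fgfr1, Pdgfa and Pdgfc with Pdgfra, Edn1 with Ednra and Ednrb, Efnb2 with Epha4, Ephb1 and Ephb2, Npnt with Itga8 and Pthlh with Pth1r. The condensate-to-placode pairs came from 9 ligands and 7 receptors: Bmp4 and Bmp7 with Bmpr1b, Fgf10 and Fgf7 with Fgfr2, Rspo1 and Rspo3 with Lgr4 and Lgr6, Inhba with Acvr1b, Gal with Galr3 and Cxcl12 with Cxcr7. Within DC the pairs included Edn3 with Ednrb, Fgf10 with Fgfr1, Gdnf with Gfra1, Vegfa with Flt1 and Kdr, and Slit2 and Slit3 with Robo1 and Robo2. Within Pc they included Bmp2 with Bmpr1b, Fgf20 with Fgfr2 and Fgfr3, Shh with Cdon and Gas1, and Ptn with Ptprz1. Without Pc replicate 2 the condensate-to-placode pairs numbered 6 rather than 11, and the call of Ptprz1 was lost without Pc replicate 2 or DC replicate 1 (limma adjusted p = 0.0561 and 0.0717).

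**Figure D2:**
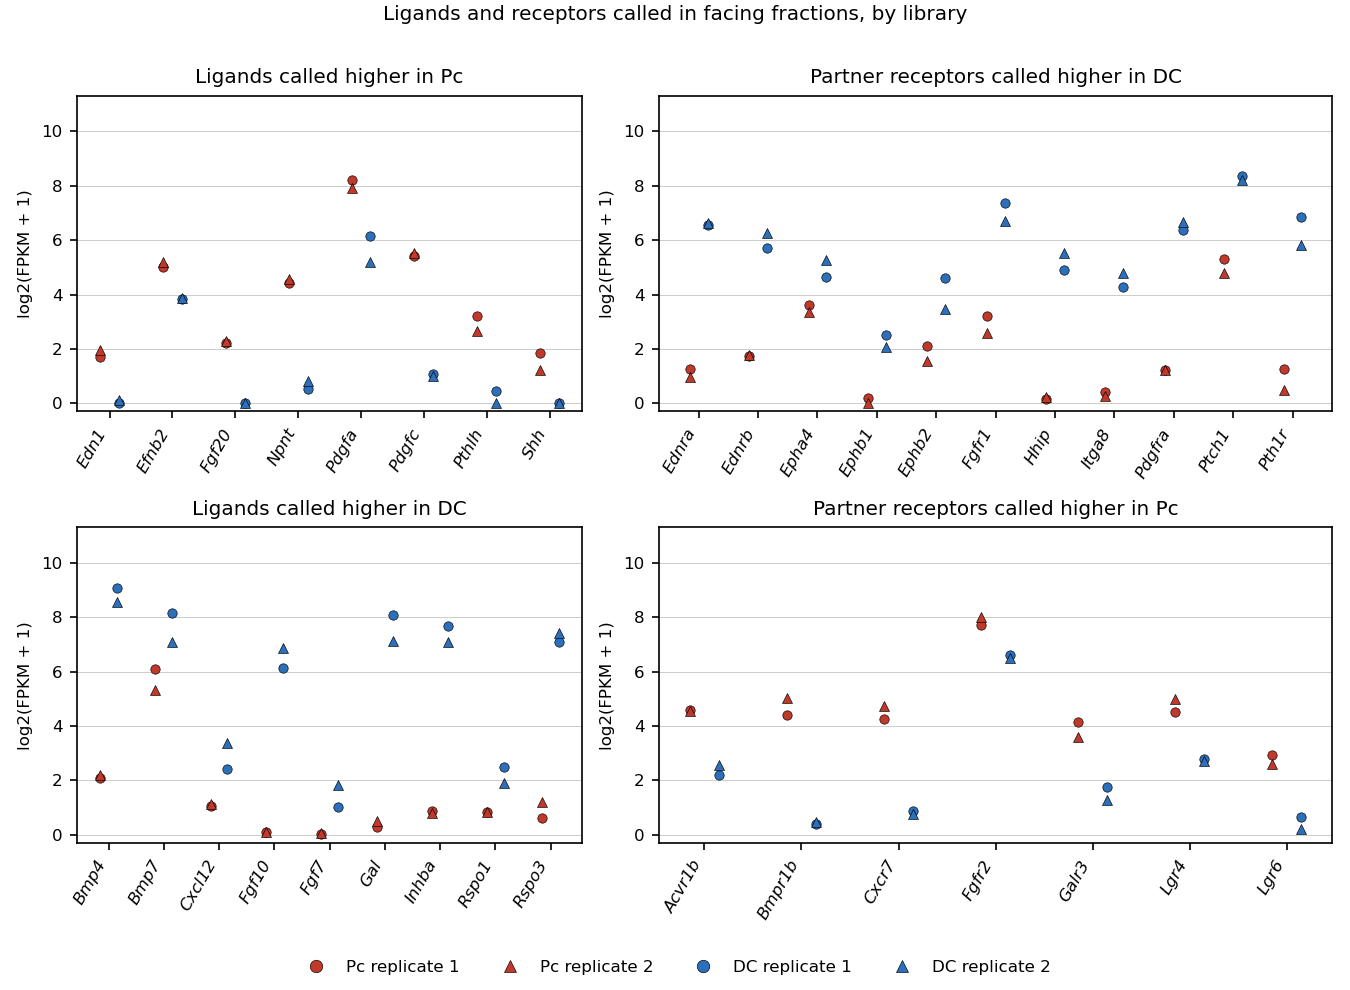
Level of each ligand and receptor of the pairs called in facing fractions, as log2(FPKM + 1) on the vertical axis, with 1 point per library (circle for replicate 1, triangle for replicate 2; Pc red, DC blue). The genes were chosen by their calls in these libraries, so the lack of overlap between Pc and DC largely follows from the choice. Fgf20 and Shh are at 0 in both DC libraries.

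**Figure D3:**
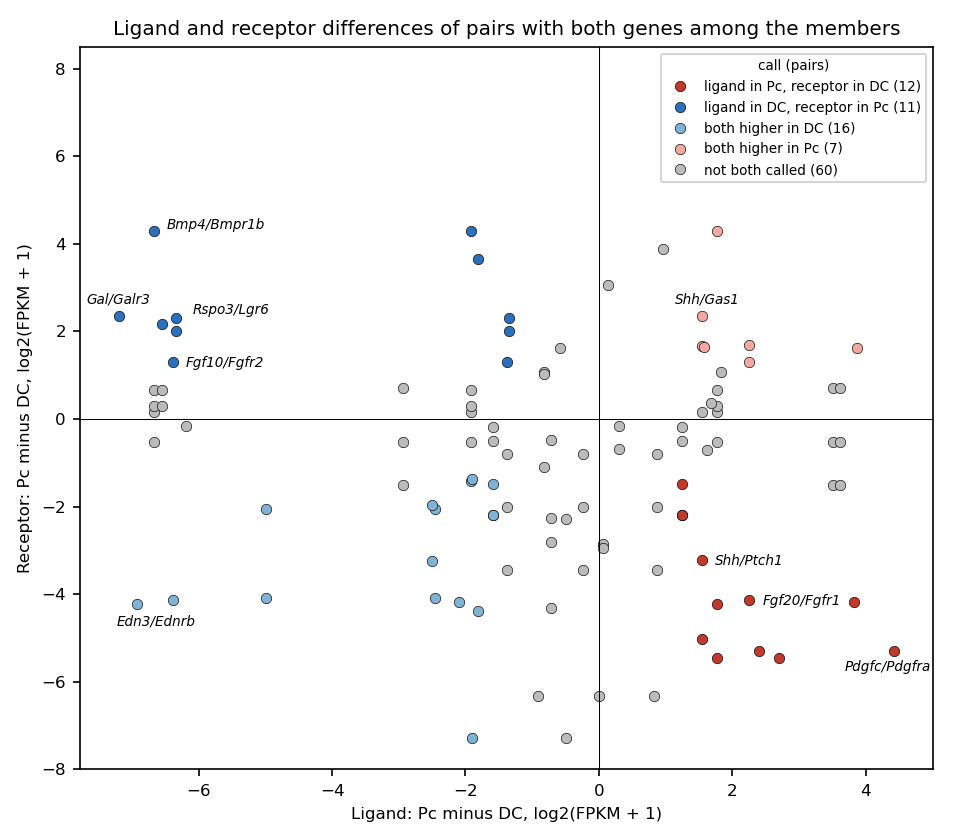
Pc minus DC difference of the ligand (horizontal axis) against that of its receptor (vertical axis), both on the log2(FPKM + 1) scale, for 106 pairs with both genes among the members. Colours give the calls, with 12 pairs at lower right, 11 at upper left, 16 at lower left, 7 at upper right and 60 not both called in grey; pairs share genes.

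Whether these differences were those of the follicle pair or of epidermis against dermis in general was tested with an interaction, the Pc minus DC difference minus the Epi minus Fb difference. The Epi libraries held placode genes too: 12 placode markers summed to 160.4 and 152 FPKM in Epi against 289.6 and 313 in Pc, and their part in the interactions was not tested. Of the 11 markers among the members 10 were higher in Pc than in DC and Cxcr4 was higher in DC. Of the 12342 genes the interaction was called for 1704 (13.8%), 940 higher (7.62%) and 764 lower (6.19%). Of 263 signalling genes among the members it was called for 92 (35%), 48 higher and 44 lower. The PDGF genes were not called, with an interaction of 0.35 ± 0.33, limma adjusted p = 0.607 for Pdgfra, and neither were the frizzled and Wnt genes Wnt7b (0.68 ± 0.42, limma adjusted p = 0.372), Wnt10b and Fzd10, nor Fgfr1 and Fgfr2. Of the Wnt genes it was called higher for 2 of 14 ligands (Wnt2b and Wnt4), 4 of 12 receptors (Fzd1, Fzd6, Fzd7 and Ror1) and 4 of 11 inhibitors (Dkk1, Dkk2, Dkk4 and Sfrp1), and lower for the inhibitor Frzb. Of these, Dkk1, Dkk2 and Ror1 were higher in DC than in Pc. For them a higher interaction means that this excess was smaller than that in Fb over Epi. Wnt2b and Fzd1 were not called for Pc against DC. Among the hedgehog targets the interaction was called lower for 2 of 3, Ptch1 and Hhip but not Gli1. It was called lower for 2 of 11 FGF, 1 of 6 Wnt, 1 of 6 BMP and 3 of 6 Notch targets, and higher for 1 FGF target. The interaction call was lost for Dkk1 without Pc replicate 1, Pc replicate 2, DC replicate 2, Epi replicate 1 or Fb replicate 2 (limma adjusted p = 0.072, 0.0696, 0.0789, 0.109 and 0.0934) and Fzd6 without Pc replicate 2, DC replicate 1 or Epi replicate 1 (limma adjusted p = 0.069, 0.0579 and 0.0573), for Dkk1, Dkk2, Dkk4 and Ror1 with a pseudocount of 0.1, for Wnt2b and Ror1 with 5, and for Dkk1 with the compared libraries alone. A p that misses the threshold does not show that the contrasts are equal. For Shh the interaction was 1.14 ± 0.32, limma adjusted p = 0.0305, for Fgf20 1.38 ± 0.27, limma adjusted p = 0.00443 and for Edar 1.18 ± 0.28, limma adjusted p = 0.012. These 3 were listed at 0 in DC, and their interaction calls depend on the pseudocount. With 0.1 in place of 1 the limma adjusted p was 0.108 for Shh, 0.127 for Fgf20 and 0.417 for Edar, and with 5 the interactions were 0.38, 0.58 and 0.83. With the compared libraries alone that of Shh was also lost (limma adjusted p = 0.128), and single libraries ended the calls for Shh without Pc replicate 1, DC replicate 1, DC replicate 2, Epi replicate 2, Fb replicate 1 or Fb replicate 2 (limma adjusted p = 0.106, 0.0761, 0.0706, 0.116, 0.0678 and 0.0747) and Edar without Epi replicate 2 (limma adjusted p = 0.0542). For Bmp4 it was -4.23 ± 0.36, limma adjusted p = 2.04e-05, for Fgf10 -3.72 ± 0.58, limma adjusted p = 0.00108 and for Ptch1 -2.78 ± 0.44, limma adjusted p = 0.00125. Bmp4 stood at 25.7 and 18.8 FPKM in Fb and 3.65 and 2.83 in Epi, against its DC values above. Gal stood at 0.226 and 0.578 in Epi and 0.553 and 0 in Fb (interaction -7.35 ± 0.55, limma adjusted p = 9.72e-06), and Cxcr4 at 0.4501 and 0.911 and 1.17 and 2.11 (interaction -3.75 ± 0.45, limma adjusted p = 0.00019). Both genes of a facing pair were called in the matching directions in 2 of the 12 placode-to-condensate pairs, Shh with Ptch1 and Shh with Hhip, and in 2 of the 11 opposite ones, Bmp4 and Bmp7 with Bmpr1b. Both placode-to-condensate pairs rest on the interaction of Shh, and neither is left wherever that call is lost. Among the condensate-to-placode ligands, Rspo1 and Cxcl12 had the interaction called the opposite way, higher. Their excess in DC over Pc was thus smaller than that in Fb over Epi.

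In 11 of the 263 signalling genes the contrasts were called in opposite directions. In 8 of these the gene was higher in Pc than in DC but higher in Fb than in Epi: Cdon, Gas1, Ptn, Kitl, Csf1, Igfbp5, Sfrp1 and Efna5. Of all 12342 genes, 33 had this pattern, and 23 were higher in DC than in Pc but higher in Epi than in Fb. The signalling genes are part of these counts, and the shares were not tested. Cdon stood at 22.3 and 25.04 FPKM in Epi and 82.1 and 98.5 in Fb, against the Pc and DC values above (interaction 3.55 ± 0.32, limma adjusted p = 2.88e-05). Gas1 stood at 35.8 and 19.7 in Epi and 102 and 77.8 in Fb (interaction 4.05 ± 0.58, limma adjusted p = 0.000624), and Ptn at 37.3 and 45.6 and 158 and 123 (interaction 5.602 ± 0.39, limma adjusted p = 6.33e-06). In each of these the DC libraries were the lowest of the 4 fractions. The Pc level was 37.97% of the Fb level for Cdon, 51.1% for Gas1 and 46.1% for Ptn, against 3.51% for the summed fibroblast markers. The part of fibroblasts in these Pc levels was not tested. Kitl, the ligand that attracts melanocytes, stood at 6.28 and 12.6 FPKM in Pc and 1.73 and 2.54 in DC, with 4.5005 and 6.95 in Epi and 19.4 and 37.1 in Fb (interaction 3.75 ± 0.58, limma adjusted p = 0.00107). The Pc against DC calls were lost for Kitl without Pc replicate 2 (limma adjusted p = 0.0802) and Efna5 without Pc replicate 2 or DC replicate 1 (limma adjusted p = 0.116 and 0.108). The 3 genes higher in DC than in Pc but in Epi than in Fb were Bmp7, Dll1 and Ednrb. Bmp7 stood at 48.7 and 32.2 FPKM in Epi and 9.09 and 4.63 in Fb (interaction -4.34 ± 0.68, limma adjusted p = 0.00114), and Dll1 at 5.41 and 3.82 and 0.236 and 0.427 (interaction -5.01 ± 0.54, limma adjusted p = 9.62e-05). Ednrb stood at 7.68 and 13.6 and 0.932 and 2.23 (interaction -6.39 ± 0.53, limma adjusted p = 1.75e-05). Melanocyte markers (9 genes) summed to 182 and 275 FPKM in Epi against 9.6 and 12.4 in Fb, 40.4 and 39.6 in Pc and 11.8 and 48.5 in DC, and Ednrb stood at 323 and 343 FPKM in Mc. The part of melanocytes in these values was not tested. The DC level was 517% of the Epi level for Bmp7 and 1445% for Dll1, against 1.88% for the summed keratinocyte markers. The part of keratinocytes in these DC levels was not tested.

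**Figure D4:**
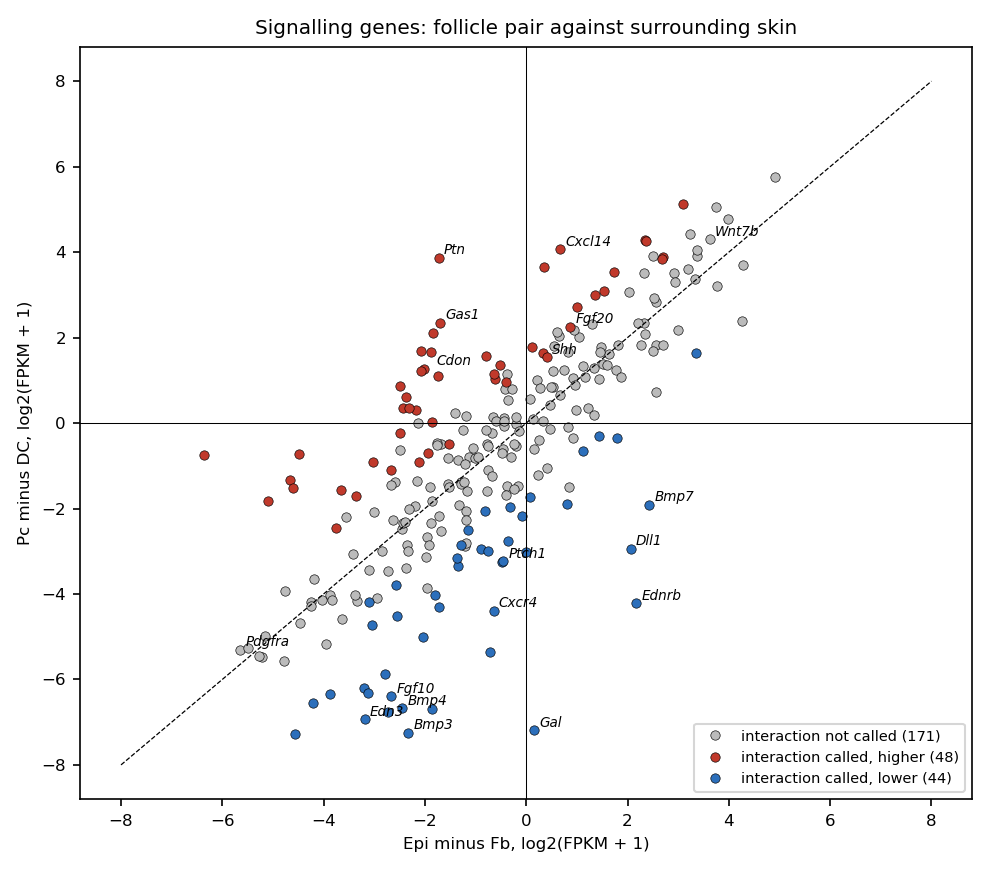
Pc minus DC difference (vertical axis) against Epi minus Fb difference (horizontal axis), log2(FPKM + 1), for 263 signalling genes; the dashed line marks equal differences. Red points (48) had the interaction called higher, blue points (44) lower and grey points (171) were not called; Ptn, Gas1 and Cdon lie at upper left, and Bmp7, Dll1 and Ednrb at lower right.

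Cell cycle genes were higher in the placode almost throughout. Of 30 cell cycle genes 28 were higher in Pc, against 15% of all members. None was higher in DC, and Mcm6 and E2f1 were not called. The median log2 difference was 3.24. Mki67, the proliferation marker, stood at 198 and 246 FPKM in Pc and 9.98 and 21.2 in DC (log2 difference 3.83 ± 0.32, limma adjusted p = 2.14e-06). Genes of mitosis such as Ccnb2 (78.4 and 77.4 FPKM in Pc and 5.42 and 6.33 in DC), Birc5 (210.1 and 218 FPKM in Pc and 14.9 and 15.6 in DC) and Ube2c (287 and 306 FPKM in Pc and 22.7 and 21.5 in DC) showed the same separation. Mcm5, a gene of DNA replication, stood at 30.4 and 30.9 FPKM in Pc and 5.92 and 5.298 in DC (log2 difference 2.26 ± 0.24, limma adjusted p = 1.45e-05). Mcm6 stood at 72.5 and 74.9 FPKM in Pc and 39.8 and 40.97 in DC (log2 difference 0.85 ± 0.16, limma adjusted p = 0.00103). The low fraction was DC: Mki67 stood at 117 and 141 FPKM in Epi and 137 and 208 in Fb, and its interaction was 4.22 ± 0.45, limma adjusted p = 8.84e-05. The interaction was called for 26 of the 30 genes, all higher, against 7.62% of all members called higher. Of 5 CDK inhibitor genes among the members 2 were higher in DC, against 15.9% of all members. Cdkn1a, a target of the tumour suppressor gene Trp53, stood at 703 and 367 FPKM in DC and 6.29 and 4.13 in Pc (log2 difference 6.38 ± 0.37, limma adjusted p = 1.41e-07), with 20.04 and 29.01 in Epi and 17.5 and 9.35 in Fb. Cdkn1c, an imprinted inhibitor gene, stood at 1909.7 and 1154 FPKM in DC and 35.7 and 25.9 in Pc (log2 difference 5.56 ± 0.35, limma adjusted p = 2.47e-07), and was also high in Fb, at 507 and 309. Cdkn1b, Cdkn2c and Cdkn2d were not called, although Cdkn2c was called higher in Pc without Pc replicate 2 (limma adjusted p = 0.0153).

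**Figure D5:**
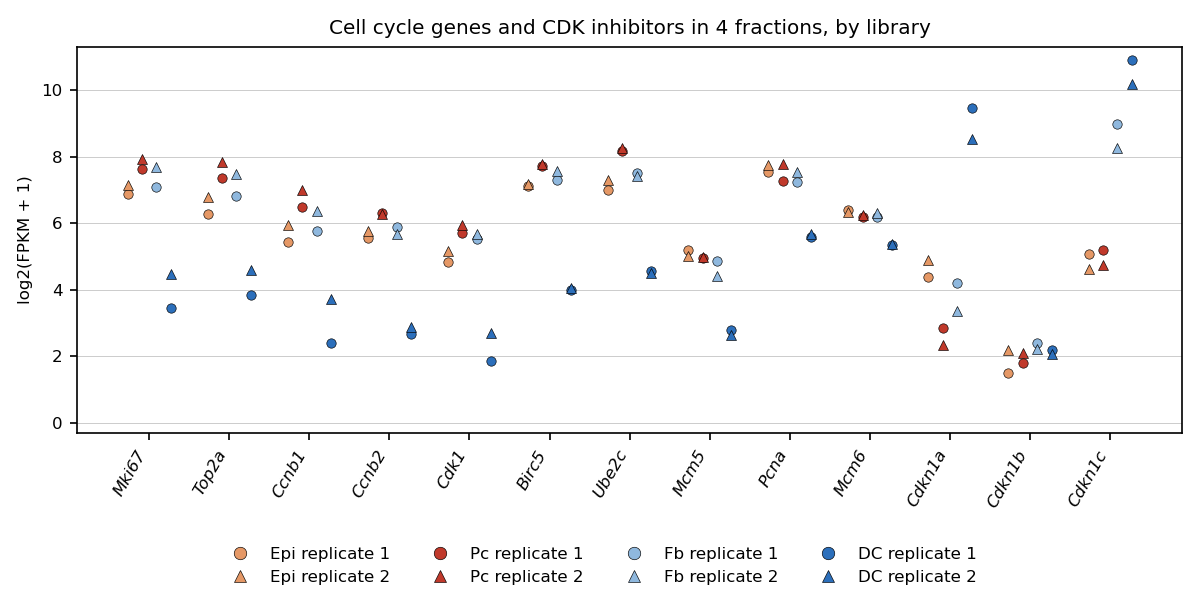
Level of 10 cell cycle genes and 3 CDK inhibitor genes as log2(FPKM + 1) on the vertical axis, with 1 point per library in Epi, Pc, Fb and DC. Both DC libraries lie below the other 6 libraries for each of the 10 cell cycle genes and above them for Cdkn1a and Cdkn1c.

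The promoters of cell cycle genes share the CCAAT letters that the factor NF-Y is known to bind. Of 25 genes of the list with a RefSeq promoter, 22 (88.0%) held CCAAT on either strand within 250 bases before a start, against 37.5% of all genes with a promoter. Ccnb2 and Ube2c are shown as genes with repeated matches in capitals (GRCm38.p6, Ccnb2 chr9:70421555-70421804, minus strand, Ube2c chr2:164769679-164769928, plus strand):
Ccnb2: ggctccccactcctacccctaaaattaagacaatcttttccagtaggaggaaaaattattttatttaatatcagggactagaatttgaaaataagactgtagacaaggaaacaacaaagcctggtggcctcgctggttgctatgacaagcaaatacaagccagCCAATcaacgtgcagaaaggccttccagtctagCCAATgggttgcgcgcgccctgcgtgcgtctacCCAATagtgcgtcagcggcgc
Ube2c: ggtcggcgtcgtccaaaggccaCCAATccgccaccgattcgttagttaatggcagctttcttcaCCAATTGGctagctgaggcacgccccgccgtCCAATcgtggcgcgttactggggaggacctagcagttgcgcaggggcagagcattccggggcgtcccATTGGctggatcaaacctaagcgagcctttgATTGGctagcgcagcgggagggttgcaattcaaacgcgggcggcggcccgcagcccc
Ccnb2 held 3 matches and Ube2c held 6, of which 2 overlap. The share describes the list and was not tested.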

How the data were processed

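RNA of 16 libraries from 8 sorted fractions of day 14.5 mouse skin was amplified to cDNA and sequenced, per the labels' protocols. The authors deposited gene-level FPKM values. TopHat2 2.0.3, Bowtie2, Cufflinks 2.1.1 and the mm10 build are named in the submitters' processing notes, with no roles. The file gives no counts, so the depth of each library is unknown and no counting interval was computed. Because FPKM are relative to the fragments of a library, a few abundant genes lower the rest; FPKM totals were 1.11 times as high in Pc as in DC.

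Values were moved to log2(FPKM + 1). Rows at 1 FPKM or more in 2 or more libraries, 14171 in all, entered a limma model (limma 3.58.1, R 4.3.3; 1 mean per fraction, trended and robust spread) with Benjamini-Hochberg adjustment over all of them. Genes whose symbol is shared by several rows were tested but not named. Differences on this scale understate those of low genes. The genes compared and the lists of pathways, markers and pairs were chosen with earlier results of these data known. Named genes are list members, the 5 markers and the called genes of largest difference, up to 10 per direction, whose higher fraction averaged 10 FPKM or more and whose libraries did not overlap. Nrp1 was not analysed here. A few other listed genes are not reported here and stand in no count of lists or pairs. Alternatives were other pseudocounts, filters and scalings, the compared libraries alone, a replicate block and leaving out each library.

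Same-numbered libraries deviated together from their fraction means in all 28 pairs of fractions (r across genes 0.148 to 0.656; Pc with DC 0.551), so the numbers were read as pairing the samples. The main fit did not use this pairing, so its p-values and its uncalled genes are those of an unpaired fit. With the replicate block, 4025 genes rather than 3818 were called for Pc against DC. The interaction was then called for 2515 genes rather than 1704. All calls of the main fit were kept with the block. Promoters are RefSeq sequences (GRCm38.p6), matched by symbol. The letters GACCACCCA of the GLI motif were searched too. They were found in 0 of 2 hedgehog target promoters and in 0.225% of all promoters.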

Additional observations from a re-analysis of the deposited data

Results flagged for a closer look

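In 12 genes named above, the difference between placode and condensate had the opposite direction to that between epidermis and fibroblasts, and both differences were called. The limma interaction (adjusted over 14171 rows) was called too, but opposite calls fix its sign and a large size. It was called for all 33 and all 23 members of the 2 opposite patterns, so it adds no separate support. For 8 of the 12 genes the placode was higher than the condensate and the fibroblasts were higher than the epidermis, with interactions on the log2(FPKM + 1) scale of 5.602 for Ptn, 4.05 for Gas1, 3.95 for Csf1, 3.75 for Kitl, 3.55 for Cdon, 3.29 for Efna5, 3.28 for Sfrp1 and 2.83 for Igfbp5. For 4 the condensate and the epidermis were the higher ones, with interactions of -6.39 for Ednrb, -5.01 for Dll1, -4.34 for Bmp7 and -2.91 for Sox10. The Pc against DC call was lost for Sox10 without Pc replicate 2 or DC replicate 2 (limma adjusted p = 0.104 and 0.0615), and with a pseudocount of 5 both its Pc against DC difference and its interaction lost the call (limma adjusted p = 0.18 and 0.122). Ednrb and Sox10 are high in Schwann cells and melanocytes. Sox10 stood at 3.94 and 4.495 FPKM in DC and 3.12 and 3.16 in Epi, against 188 and 92.2 in Sch and 131 and 123 in Mc. Summed melanocyte markers stood at 182 and 275 FPKM in Epi against 9.6 and 12.4 in Fb. The interaction was called lower for 5 of 8 melanocyte genes, against 6.19% of all members. The part of both cell types in these values was not tested.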

How the results depend on the processing

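With a pseudocount of 5 in place of 1, 1109 genes were higher in Pc and 1140 in DC, because a larger pseudocount shrinks the differences of low genes. This setting gave 6 placode-to-condensate and 7 condensate-to-placode pairs and 14 in the same fraction, an alternative chosen after seeing the data. It ended the Pc against DC calls of 35 named genes: Bmp8b, Chrd, Csf1, Cxcl12, Disp1, Dkk1, Dkk2, Edn1, Edn2, Epha2, Ephb1, Fgf20, Fgf3, Fgf7, Fgfr3, Fzd7, Gdnf, Hey2, Id4, Kitl, Ltb, Msx2, Nfkbia, Relb, Ror1, Rspo1, Scube2, Scube3, Sfrp1, Shh, Sox10, Spred3, Wnt11, Wnt9a and Wnt9b. A pseudocount of 0.1 ended those of Relb and Scube3 and called Cdkn2c, Eda and Tgfb2. No filter on low values ended those of Erbb2 and Relb, and fitting the compared libraries alone those of Disp1, Efna5, Erbb2 and Relb. Quantile normalization called Eda. A log2 threshold of 2 in place of 1 left 5 placode-to-condensate pairs, 5 condensate-to-placode pairs and 8 pairs in the same fraction. With the replicate number as a block, 1316 genes had a higher and 1199 a lower interaction, and 1941 genes were higher in Pc and 2084 in DC. The block called Notch3 and Tgfb1, gave 14, 11 and 27 pairs in the 3 arrangements and changed no other call of the 229 genes named for Pc against DC. Leaving out each library in turn gave 6 to 11 condensate-to-placode pairs. Rescaling the libraries to one FPKM total moved the median log2 difference from 0.0022 to -0.13, with 1622 genes higher in Pc and 2205 in DC. It ended the calls of Bmp8b, Igfbp5, Msx2, Relb and Smoc2 and called Etv5 (-1.02), Notch3 and Tgfb1. It reversed Bmpr1a (-0.0015), Lrp6 (-0.023), Wnt2b (-0.061) and Cdkn2d (-0.093), none of which was called. Of 193 called genes none reversed under any alternative tried, and 25 lost the call without 1 library. The uncalled genes that reversed without 1 library ranged from -0.17 to 0.48 (Boc), -0.67 to 1.21 (Cdh5), -0.20 to 0.49 (Bmpr1a), -0.14 to 0.24 (Cdkn2d), -0.20 to 0.46 (Lrp6), -0.84 to 0.39 (Etv4), -1.34 to 0.40 (Id1), -1.31 to 0.30 (Id3), -0.56 to 0.84 (Pecam1), -0.53 to 0.045 (Tgfb3), -0.085 to 0.13 (Wnt2b) and -0.12 to 0.97 (Lrp5). The cause of these shifts was not tested. Depth is not stated, so the precision of low FPKM is unknown.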

Other observations

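The condensate fraction also held low levels of genes known from other cell types of the dermis, and so did other fractions. The 6 mural markers summed to 23.1 and 14.3 FPKM in DC and 73.1 and 91.6 in Fb. The 6 neuron markers summed to 26.0 and 17.9 FPKM in DC, 16.0 and 16.1 in Fb and 27.2 and 29.8 in Sch. The neuronal genes Stmn2, at 19.5 and 13.4 FPKM in DC and 0.171 and 0.121 in Pc (log2 difference 3.903 ± 0.33, limma adjusted p = 2.49e-06), and Tubb3, at 5.73 and 2.91 FPKM in DC and 0.227 and 0.0901 in Pc (log2 difference 2.15 ± 0.30, limma adjusted p = 0.000119), were higher in DC, whereas Elavl3 and the other 3 neuron genes of the list did not reach 1 FPKM in 2 of the 4 libraries. Of 3 mural cell genes among the members, Rgs5 (log2 difference 2.45 ± 0.49, limma adjusted p = 0.00182) and Cspg4 (log2 difference 2.39 ± 0.55, limma adjusted p = 0.00444) were higher in DC, at 3.88 and 5.63 and 17.4 and 7.04 FPKM, and the smooth muscle actin gene Acta2 was not called, at 1.38 and 0.953 in DC. No gene of the 6 on the skeletal muscle list was among the members.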
